A study of Sus scrofa with 40 samples.

Results

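Tissue of the corticomedullary junction (CMJ) from porcine kidneys exposed to 60 min of warm ischemia and 6 h of cold storage (WI+CS6h-CMJ) was compared with the same tissue of freshly removed control kidneys (Ctl-CMJ). The arrays were chosen by their titles, which gave 5 WI+CS6h-CMJ and 5 Ctl-CMJ arrays, 10 of the 40 arrays of the series. The series holds 8 groups of 5 arrays, from cortex and from CMJ, and was designed to follow gene expression through the ischemic steps that a kidney of a donor deceased after circulatory death goes through before transplantation. All animals were Large White pigs, 3 months old, described as independent brothers under a common anaesthesia and surgery. The right kidneys of the stored group were clamped, removed, kept clamped at 37 °C for 60 min, flushed with cold University of Wisconsin solution and kept at 4 °C without perfusion for 6 h, and according to the labels these kidneys were sampled once more at 24 h. Control kidneys were untreated and were sampled and frozen directly after removal, so that warm ischemia, flushing and storage differ together between the groups. No reperfusion step is described for these kidneys. Each array carries the RNA of 1 biopsy on 60-base Agilent porcine probes.

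The corticomedullary junction holds the straight part of the proximal tubule and stretches of the thick ascending limb, which depend on oxygen for ion and solute transport while their blood supply is low. Clamping the renal vessels stops the delivery of oxygen, and cold storage slows metabolism without stopping it, so RNA can still be made and degraded in a stored kidney. Immediate early genes such as FOS and EGR1 encode transcription factors that are transcribed within minutes of a stress without new protein synthesis, and IL1B encodes a cytokine that starts inflammation in injured tissue.

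Among the 3 probe sequences shown here, the first belongs to FUT2, which encodes a fucosyltransferase of surface glycans, and is shown because it was the only FUT2 probe well above background in the controls. The other two show where the probes of large falls sit in the messages of CELA2A, a serine protease of the elastase family, and of ARG2, the mitochondrial arginase. They are written 5′ to 3′ in the sense of the message as the array files give them. The capitals mark the codons up to and including the catalytic serine in CELA2A and an aspartate-rich stretch that binds metal in ARG2, and the FUT2 probe has none.
FUT2: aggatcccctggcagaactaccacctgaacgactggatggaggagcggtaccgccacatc
CELA2A: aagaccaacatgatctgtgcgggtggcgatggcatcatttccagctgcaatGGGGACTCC
ARG2: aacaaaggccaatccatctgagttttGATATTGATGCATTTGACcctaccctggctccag

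Signals are given as log2 of the processed intensity after quantile normalization of all 40 arrays, in log2 units, and a log2 fold change is the mean of the WI+CS6h-CMJ arrays minus the mean of the Ctl-CMJ arrays. A probe was counted as well above background where the scanner software marked it so, and 61.42% to 67.81% of the spots were on the Ctl-CMJ arrays and 64.29% to 69.91% on the WI+CS6h-CMJ arrays. Markers of kidney segments were read on these arrays. No cortex values were set beside them, so they do not tell junction from cortex. AQP1, the water channel of the proximal tubule, was saturated on all 10 arrays. LRP2, the endocytic receptor megalin of the same segment, had a mean log2 signal of 14.34 ± 0.18 (SD, n = 5) in Ctl-CMJ, KCNJ1, the potassium channel of the thick ascending limb, had 12.72 ± 0.24, and AQP2, the water channel of the collecting duct, had 12.42 ± 0.45. AQP4, another channel of the collecting duct, was not well above background on any array of either group.

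The stored kidneys were not equally spaced. The root mean square difference between WI+CS6h-CMJ arrays 1 and 2 was 0.243 log2 units and that between arrays 3 and 4 was 0.26, whereas the 8 other pairs of this group lay between 0.441 and 0.576. Array 5 stood farthest from the rest, and among Ctl-CMJ arrays the differences ran from 0.227 to 0.52. CYP2A19, a drug-metabolizing cytochrome P450, shows the pattern with log2 signals of 8.55, 8.55, 6.53, 6.70 and 3.56 on arrays 1 to 5. GATM, which makes the precursor of creatine, had 13.62, 13.66, 12.69, 12.50 and 11.75 on the same arrays. These examples were chosen after their values were seen, and whether kidneys 1 and 2, or 3 and 4, share an animal, a litter or a handling step was not tested. If they are not independent the p-values are too small, so the calls named below were also computed with arrays 1 and 2 averaged and arrays 3 and 4 averaged. Of the 63 calls that the naming rule covers, 20 were lost in this way (ARG2, BCL6, CCL2, CD83, CELA2A, CIART, CRSP3, DDIT3, DNAJC3, EMILIN3, HMOX1, HSD17B4, ID2, KCNJ3, PPARA, SCNN1G, SLC46A2, SLC7A8, TLR7 and TNFSF10). Of 16 other called identifiers that are described or stand in a gene list, 8 were lost (AKR1B1, ANPEP, CSRNP1, KDR, KLF5, SLC22A8, SLC26A7 and SLC38A6).

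**Figure D1:**
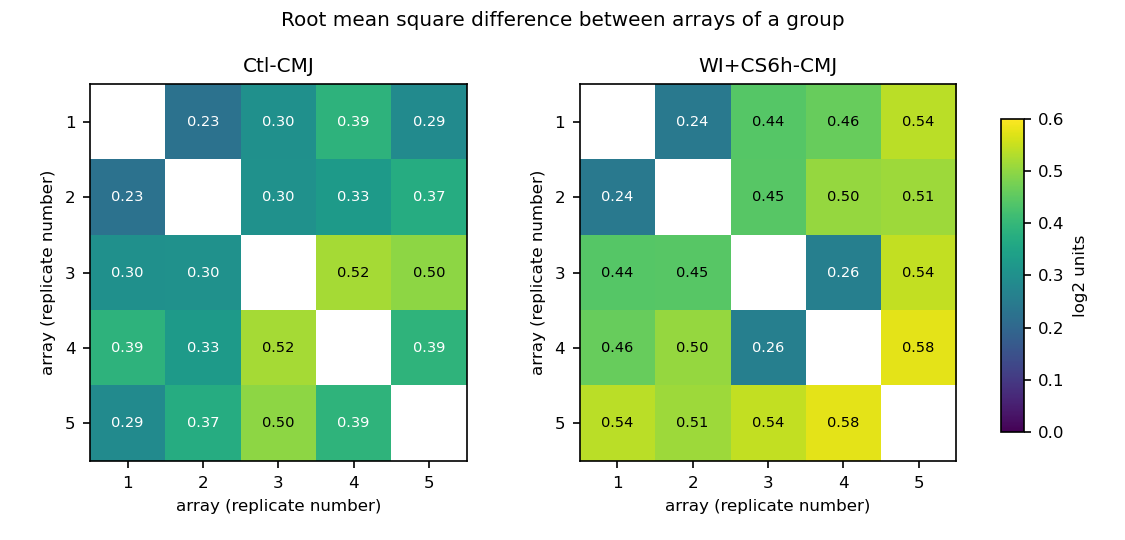
Root mean square difference of log2 signal (colour and printed value, log2 units) between each pair of the 5 Ctl-CMJ arrays (left) and of the 5 WI+CS6h-CMJ arrays (right), over identifiers well above background on all 5 arrays of the group. In WI+CS6h-CMJ the pairs 1 and 2 (0.243) and 3 and 4 (0.26) stand below the 8 other pairs (0.441 to 0.576).

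Of 35938 identifiers tested with limma, 1148 (3.19%) were called, which required a Benjamini-Hochberg adjusted p below 0.05 and a log2 fold change of 0.5 or more in size. Of these, 485 were higher in WI+CS6h-CMJ (1.35% of those tested) and 663 were lower (1.84%). The balance depended on the scaling, with 900 higher and 496 lower when each group was normalized separately, and 62 higher and 102 lower after normexp background correction. The median log2 fold change over all identifiers was -0.01 and the median size among the calls was 0.80, with 369 calls of at least 1 and 62 of at least 2. The values of the groups did not overlap for 2141 identifiers (5.96%), of which 933 were called. Slides 2, 6, 7 and 10 held an array of each group, and 1123 of the 1148 calls had their direction within all 4 slides. A fit with slide as a term called 966, a fit of the 10 arrays alone called 889, and the fit with the stored kidneys averaged called 697, 667 of them among the 1148. Of the calls, 324 have a gene symbol in the sources used here, and the description of named genes rests on 7660 genes with a symbol, of which 259 (3.38%) were called, 125 higher (1.63%) and 134 lower (1.75%). The counts of called members in the gene lists below stand beside this share of 3.38%.

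**Figure D2:**
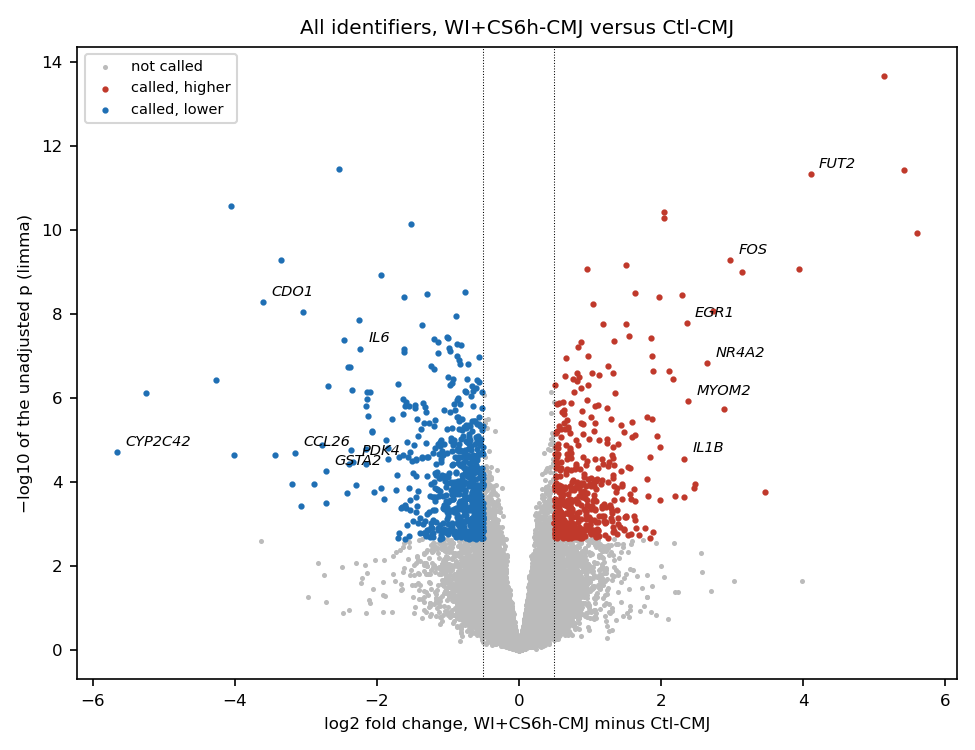
Log2 fold change of WI+CS6h-CMJ against Ctl-CMJ (x axis, log2 units) and the -log10 of the unadjusted limma p (y axis) for each of 35938 identifiers, 5 arrays per group. Red points are the 485 higher and blue points the 663 lower calls, and dotted lines mark a log2 fold change of 0.5 in each direction. FOS lies at 2.98, IL1B at 2.33, CDO1 at -3.61 and CYP2C42 at -5.66.

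Of 33 measured immediate early genes, 8 rose (FOS, NR4A2, EGR1, BTG2, PLK3, JUN, CSRNP1 and TRIB1), 1 fell (KLF5) and 24 were not called, and the median of the list was 0.14. FOS, a component of the AP-1 transcription factor, had log2 signals of 10.09, 9.39, 9.55, 9.29 and 10.74 on the Ctl-CMJ arrays and 12.20, 12.51, 13, 12.93 and 13.30 on the WI+CS6h-CMJ arrays. The groups were apart by more than a log2 unit and Ctl-CMJ array 5 was the highest control. The log2 fold change of FOS was 2.98 (SE 0.25, adjusted p = 1.68e-06), and its 3 probes gave 2.90, 2.89 and 3.13. EGR1, a zinc finger factor, had 3.56, 2.67, 3.32, 3.08 and 4.38 in Ctl-CMJ and 5.65, 5.57, 5.53, 5.87 and 6.21 in WI+CS6h-CMJ. Array 5 was the highest of both groups, 1 control array was not well above background, and the log2 fold change was 2.36 (SE 0.24, adjusted p = 2.01e-05).

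NR4A2, an orphan nuclear receptor, had 5.42, 5.19, 5.24, 4.99 and 5.46 in Ctl-CMJ and 8.19, 8.35, 8.19, 7.97 and 6.85 in WI+CS6h-CMJ. The controls were tight, the stored arrays 1 to 4 lay together and stored array 5 was lower, still above every control (log2 fold change 2.65, SE 0.32, adjusted p = 9e-05). BTG2, which restrains cell division, had 9.10, 8.76, 8.87, 8.47 and 9.36 against 10.53, 10.84, 11.08, 11 and 10.40. No array of the groups overlapped and the log2 fold change was 1.86 (SE 0.20, adjusted p = 3.61e-05). JUN, the partner of FOS in AP-1, rose by 0.92 (SE 0.18, adjusted p = 0.00535) and PLK3, a kinase of the stress response, by 1.13 (SE 0.19, adjusted p = 0.00158). CSRNP1 (0.55) and TRIB1 (0.52) were close to the limit of 0.5 and were not called with slide as a term (adjusted p = 0.108 and 0.0536), and KLF5, a zinc finger factor of epithelia, fell by 0.58 (adjusted p = 0.00857). GADD45A, a growth arrest gene, had the lowest value of the list at -0.71 and was not called (adjusted p = 0.163).

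The same fit gave the level after warm ischemia alone (WI-CMJ, 5 arrays), which shares the control arrays, so its values stand beside those of WI+CS6h-CMJ without a measure of overlap. In WI-CMJ against Ctl-CMJ 247 identifiers (0.687%) were called, and in WI+CS6h-CMJ against WI-CMJ 1000 (2.78%). FOS was at a log2 fold change of 2.59 in WI-CMJ against Ctl-CMJ, EGR1 at 2.34, IL1B at 2.18, NR4A2 at 1.47 and BTG2 at 1.30, and these 5 were the called ones among the 12 largest rises. NR4A2 was in addition called between WI+CS6h-CMJ and WI-CMJ (1.18 higher after storage), whereas FOS (0.39), EGR1 (0.02), IL1B (0.15) and BTG2 (0.55) were not.

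IL1B was the only one of 41 interleukins, TNF family members and colony factors that was called higher, while IL6 and TNFSF10 were called lower and 38 members were not called (median of the list -0.03). IL1B had log2 signals of 3.36, 3.13, 3.16, 2.11 and 4.19 in Ctl-CMJ and 4.79, 4.81, 6.17, 6.53 and 5.28 in WI+CS6h-CMJ. Stored arrays 3 and 4 were the highest and control array 5 came closest to the stored arrays without reaching them. The log2 fold change was 2.33 (SE 0.42, adjusted p = 0.00293), or 5.01-fold, with 4 of the 5 control arrays well above background. Within slides the difference ran from 0.62 to 4.42, and with slide as a term the IL1B log2 fold change was 2.27 with an adjusted p of 0.0515, so that the call was lost. RefSeq assigns the IL1B probe to IL1B and to its near copy IL1B2, so these genes cannot be told apart here.

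IL6, a cytokine of the acute phase response, had 4.19, 3.77, 3.52, 3.98 and 4.45 in Ctl-CMJ and 1.79, 1.87, 1.46, 1.12 and 2.49 in WI+CS6h-CMJ. All control arrays and 3 stored arrays were well above background, no values overlapped, and IL6 was called lower with a fitted value of -2.24 (SE 0.25, adjusted p = 5.03e-05). A second IL6 identifier, not well above background on any stored array, was at least 1.72-fold lower (adjusted p = 3.87e-05). TNFSF10, the death ligand TRAIL, fell by 0.79 (SE 0.20, adjusted p = 0.031), and that call was lost in 7 of the 10 fits without 1 array (adjusted p 0.0508 to 0.0701) and with the stored kidneys averaged.

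Among 30 measured chemokine ligands, CCL2, which draws monocytes, and CXCL2, which draws neutrophils, rose, CCL26 fell and 27 were not called (median -0.07). CCL26, the eosinophil attractant eotaxin-3, had 6.47, 6.59, 6.65, 6.30 and 6.19 in Ctl-CMJ and 4.20, 4.21, 1.34, 2.39 and 4.28 in WI+CS6h-CMJ. Controls spanned less than a log2 unit whereas stored arrays 3 and 4 were far below stored arrays 1, 2 and 5, and array 3 was not well above background. CCL26 was called lower with a fitted value of -3.16 (SE 0.55, adjusted p = 0.00249), whose size rests in part on array 3. CCL2 had 8.38, 7.53, 7.60, 7.72 and 9.01 against 9.0, 9.15, 9.32, 9.16 and 9.04, so that control array 5 reached into the stored group, and its log2 fold change was 1.08 (SE 0.22, adjusted p = 0.00674). CXCL2 rose by 0.92 (SE 0.20, adjusted p = 0.011) without overlap between the groups. The call of CCL2 was lost with the stored kidneys averaged, and that of CXCL2 with slide as a term (adjusted p = 0.051).

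In the NF-kB list 2 of 23 members were called. CD83, a surface protein of activated antigen-presenting cells, rose by 1.04 (SE 0.21, adjusted p = 0.00761), and MAP3K8, a kinase of the inflammatory response, fell by 1.11 (SE 0.19, adjusted p = 0.00191). In WI-CMJ against Ctl-CMJ both were already at these levels, CD83 at 1.34 and MAP3K8 at -1.10, and both were called there. With the stored kidneys averaged the call of CD83 was lost (adjusted p = 0.0533). NFKBIA, the inhibitor of NF-kB that NF-kB itself induces, was at -0.44 and not called. Among 22 Toll-like receptors and adaptors, TLR7, a sensor of viral RNA, was the 1 called member and fell by 1.27 (SE 0.30, adjusted p = 0.0197), and stored array 5, at 4.73, lay among the controls. The TLR7 call was lost without Ctl-CMJ array 5 and without WI+CS6h-CMJ array 1, 2 or 4 (adjusted p 0.053 to 0.0567).

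Of 32 complement genes, FCN2 rose and C8G, which encodes a chain of the membrane attack complex, fell by 1.08 (SE 0.19, adjusted p = 0.00261). FCN2, a lectin that recognises microbial sugars and starts complement activation, had 4.21, 3.96, 4.55, 4.11 and 4.15 in Ctl-CMJ and 5.98, 5.88, 6.79, 6.99 and 7.68 in WI+CS6h-CMJ. The controls were tight, every stored array was above them and array 5 was the highest (log2 fold change 2.47, SE 0.51, adjusted p = 0.0084). Its 2 probes gave 2.33 and 2.61, the latter well above background on 4 control arrays. In WI-CMJ against Ctl-CMJ FCN2 was at 1.34 and was not called (adjusted p = 0.261).

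Interferon-stimulated genes lay mostly below 0. Of 29 measured members 4 had a log2 fold change above 0, the median was -0.47 against -0.01 over all identifiers, and 2 were called, both lower. MX2, an antiviral GTPase, fell by 1.08 (SE 0.19, adjusted p = 0.00227) and GBP2, a guanylate-binding protein, by 0.93 (SE 0.16, adjusted p = 0.00184). GBP2 had 9.24, 9.20, 9.21, 9.21 and 9.35 in Ctl-CMJ and 8.33, 8.37, 8.42, 8.5 and 7.92 in WI+CS6h-CMJ, without overlap and with stored array 5 the lowest. RSAD2 (-1.39, adjusted p = 0.23), ISG15 (-1.07, adjusted p = 0.0538) and OAS1 (-0.98, adjusted p = 0.117), antiviral effectors, were not called. The median of the list stayed below 0 under each of 5 other ways of scaling the arrays, between -0.51 and -0.19.

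FUT2, averaged over 3 probes, had log2 signals of 1.31, 1.24, 1.34, 1.69 and 1.89 in Ctl-CMJ and 4.86, 5.10, 6.18, 6.07 and 5.80 in WI+CS6h-CMJ. All stored arrays were above 4 and all controls under 2 (adjusted p = 4.05e-08). The printed probe, well above background on all control arrays, gave a log2 fold change of 1.65. The other two were not well above background on any control array, so that the fitted value of 4.11 and its rank among the rises rest on control signals at background. In WI-CMJ against Ctl-CMJ the fitted value was 0.01, and in cortex, WI+CS6h-C against Ctl-C, it was 4.69.

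MYOM2, which encodes a protein of the sarcomere's M band, had 2.07, 1.84, 1.22, 1.78 and 1.47 in Ctl-CMJ and 4.27, 4.21, 3.83, 4.41 and 3.61 in WI+CS6h-CMJ. No control array and every stored array was well above background, so MYOM2 was at least 3.39-fold higher (adjusted p = 0.000378). In WI-CMJ 1 array was well above background. Of 26 striated muscle markers MYOM2 was the only one called, and the mean log2 signal of the list per array ran from 2.95 to 3.19 in Ctl-CMJ and from 3.13 to 3.42 in WI+CS6h-CMJ. MB, MYH2, MYL1 and MYL2 were not well above background on any array of either group, and CKM, the muscle creatine kinase, was at 1.44 without being called (adjusted p = 0.21). Whether muscle tissue in the biopsies has a part in the MYOM2 value was not tested.

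Of the other large rises, PYY, a peptide hormone of the gut, was at least 2.45-fold higher (adjusted p = 0.013), with log2 signals of 0.68 to 2.47 in Ctl-CMJ and 2.83 to 4.46 in WI+CS6h-CMJ. WDR64, a WD repeat protein, was at least 2.28-fold higher (adjusted p = 6.66e-05), with 1.06 to 2.14 against 3.06 to 3.82. EMILIN3, a glycoprotein of the extracellular matrix, was at least 2.15-fold higher (adjusted p = 0.0228), with 0.51 to 2.85 against 2.94 to 4.07. These 3 genes were not well above background on any control array, and the call of EMILIN3 was lost in the fits without Ctl-CMJ array 1 or 4 and without WI+CS6h-CMJ array 1 or 2 (adjusted p 0.0508 to 0.0674). RHOV, a small GTPase, had 2.77, 2.49, 3.21, 2.86 and 2.58 against 4.28, 4.39, 4.72, 4.44 and 4.26 (fitted value 1.64, SE 0.15, adjusted p = 6.13e-06). The RHOV probe well above background on all arrays gave 1.78, whereas another was so on 2 control arrays (1.63) and the third on no array of either group.

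**Figure D3:**
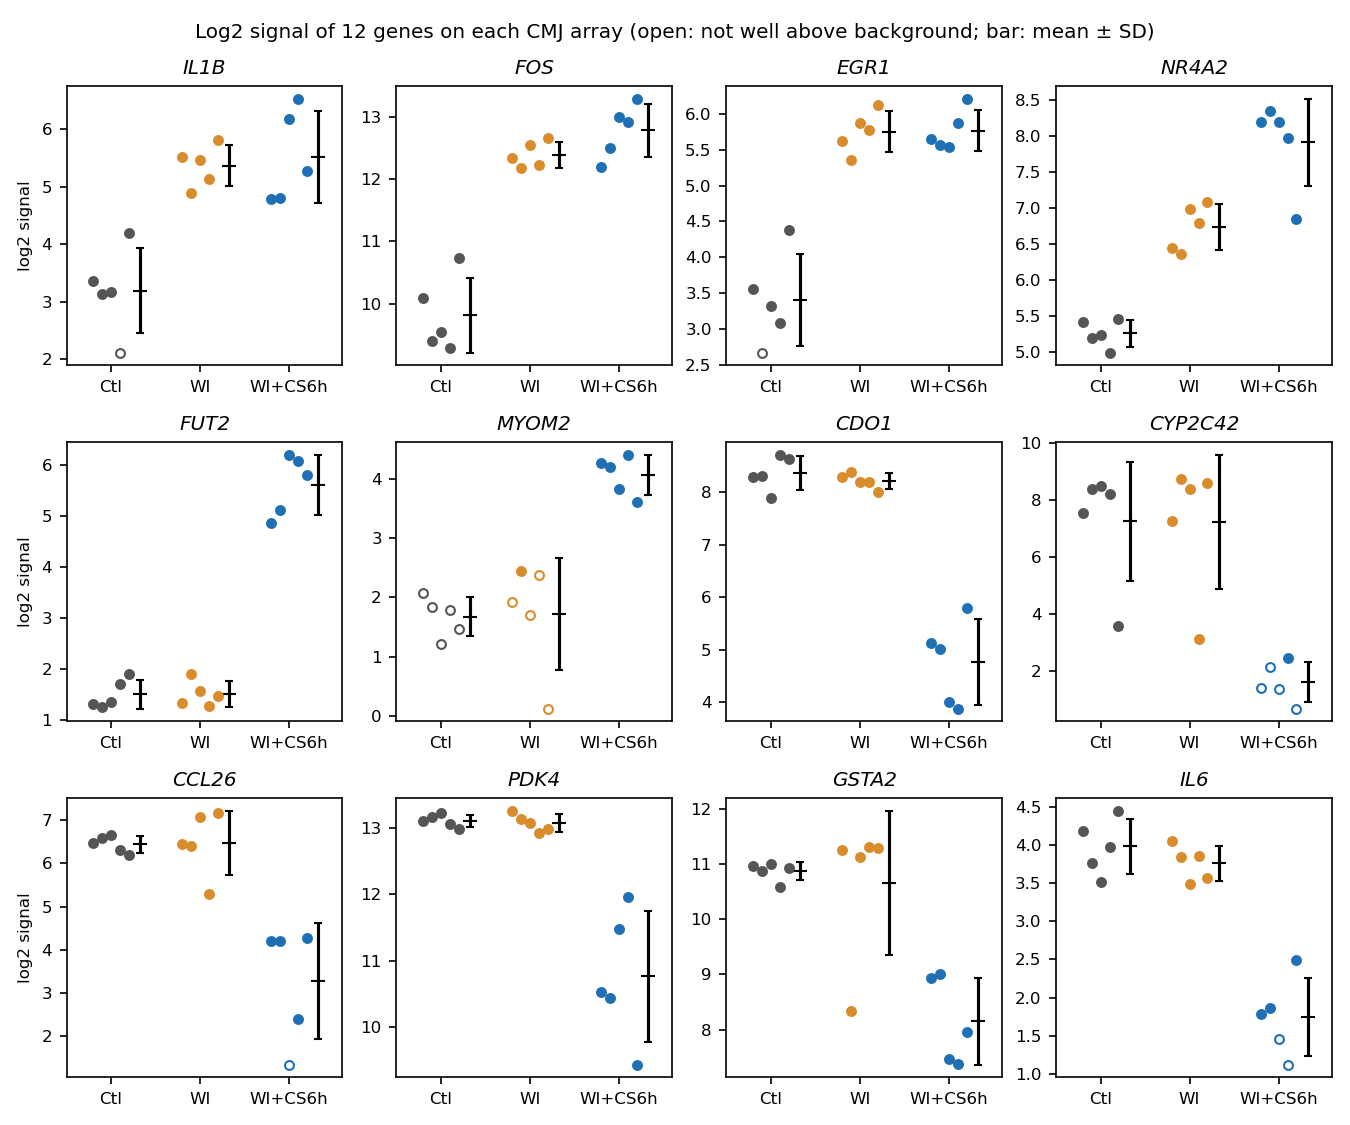
Log2 signal (y axis, log2 units, not starting at 0) of 12 genes on each of the 5 Ctl, 5 WI and 5 WI+CS6h arrays of the CMJ. Each point is an array, open points are not well above background, and bars give mean ± SD (n = 5). IL1B, FOS and EGR1 were already higher in WI than in Ctl, whereas FUT2, MYOM2 (higher) and CDO1, CCL26, PDK4 and IL6 (lower) stood apart in WI+CS6h.

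Drug-metabolizing enzymes that were called were all lower. Of 34 measured members 4 fell (CYP2C42, GSTA2, CYP4A21 and GSTA4), none rose and the median of the list was -0.18. CYP2C42, a cytochrome P450 of the 2C subfamily, had 7.54, 8.40, 8.51, 8.23 and 3.58 in Ctl-CMJ and 1.38, 2.13, 1.34, 2.45 and 0.66 in WI+CS6h-CMJ. Control array 5 was far below the other controls but above every stored array, and CYP2C42 was called lower with a fitted value of -5.66 (SE 0.98, adjusted p = 0.00246). Only 1 stored array was well above background, so the size of the fall was not measured on the other 4. GSTA2, a glutathione transferase of the alpha class, had 10.97, 10.88, 11.01, 10.59 and 10.93 against 8.94, 9.01, 7.46, 7.38 and 7.96. No values overlapped, stored arrays 1 and 2 were the least reduced, and GSTA2 fell by 2.72 (SE 0.52, adjusted p = 0.00473).

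The array files name this identifier GSTA2 and RefSeq lists its accession as GSTA1. A separate identifier named GSTA1 had 8.54, 8.75, 9.65, 4.40 and 4.47 in Ctl-CMJ and 10.37, 10.41, 8.55, 8.78 and 8.92 in WI+CS6h-CMJ, with 2 controls far below the other 3, and at 2.24 it was not called (adjusted p = 0.28). Members of this family are close in sequence and the probes may not keep them apart. GSTA4 fell by 0.50 (SE 0.08, adjusted p = 0.00095), at the limit of the call, and in the fits without Ctl-CMJ array 5, WI+CS6h-CMJ array 1 or WI+CS6h-CMJ array 5 it stood at 0.468 to 0.481 in size, under that limit. CYP4A21, a bile acid hydroxylase of the pig, fell by 0.54 over 4 probes (adjusted p = 0.0156). The 2 dimmer probes gave -0.86 and -0.58, and the 2 brighter ones, which RefSeq assigns to CYP4A24 as well, gave -0.54 and -0.19. At least 1 of the 4 probes was saturated on each control array and none on any stored array, which limits the size of this fall. Without WI+CS6h-CMJ array 5 the size for CYP4A21 was 0.46, which ended the call. CYP2A19 (-2.50, adjusted p = 0.128) and CYP2C32 (-2.48, adjusted p = 0.497), which varied widely within a group, were not called.

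CDO1, the cysteine dioxygenase that turns cysteine into the precursor of taurine, had 8.29, 8.31, 7.89, 8.72 and 8.64 in Ctl-CMJ and 5.13, 5.01, 4.00, 3.87 and 5.80 in WI+CS6h-CMJ. The lowest control was more than 2 log2 units above the highest stored array, and stored arrays 3 and 4 were the lowest. CDO1 fell by 3.61 (SE 0.35, adjusted p = 7.84e-06), a 12.2-fold difference, with -4.85 to -3.17 within slides. In WI-CMJ against Ctl-CMJ it was at -0.15 and in cortex WI+CS6h-C against Ctl-C at -2.42. It was the 1 called member of 18 genes of cysteine, methionine and taurine metabolism, and the median of that list was -0.10.

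PDK4, the kinase that shuts pyruvate dehydrogenase in favour of fatty acid use, had 13.10, 13.16, 13.22, 13.06 and 12.98 in Ctl-CMJ and 10.53, 10.44, 11.48, 11.96 and 9.44 in WI+CS6h-CMJ. The controls were nearly level, the stored arrays spread over more than 2 log2 units below them, and stored array 5 was the lowest. PDK4 fell by 2.33 (SE 0.42, adjusted p = 0.00329), its 9 probes gave -2.48 to -2.14, and in WI-CMJ it was at -0.03. Of 39 genes of fatty acid oxidation and targets of PPARA, 3 fell (PDK4, HADHA and HSD17B4), PPARA itself was called higher on its brighter identifier only, and 35 were not called. The median of the list was -0.12, and it was 0.02 when each group was normalized separately.

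HADHA, a subunit of the mitochondrial trifunctional protein, fell by 0.87 (SE 0.21, adjusted p = 0.0236), HSD17B4, an enzyme of peroxisomal beta-oxidation, fell by 0.59 (SE 0.15, adjusted p = 0.0333), and PPARA, the nuclear receptor of fatty acids, rose by 0.89 (SE 0.23, adjusted p = 0.0367). PPARA had 7.25, 7.01, 6.12, 6.66 and 5.85 in WI+CS6h-CMJ against 5.61 to 5.86 in Ctl-CMJ, so stored array 5 lay within the controls. A second PPARA identifier, slightly dimmer and well above background on all arrays of both groups, gave 0.20 and was not called (adjusted p = 0.739). Without 1 of the 10 arrays the call of HADHA was lost in 5 fits (adjusted p 0.0554 to 0.0662), that of HSD17B4 in 6 (0.0729 to 0.0929) and that of PPARA in 8 (0.0562 to 0.103). PLIN2, a coat protein of lipid droplets (-1.22, adjusted p = 0.113), and ANGPTL4, an inhibitor of lipoprotein lipase (-1.08, adjusted p = 0.116), were not called.

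In arginine, nitric oxide and creatine metabolism 2 of 20 genes fell and none rose. ARG2 had 10.56, 10.54, 10.88, 10.05 and 10.03 in Ctl-CMJ and 7.78, 7.74, 9.64, 9.78 and 9.40 in WI+CS6h-CMJ. Stored arrays 1 and 2 were far below stored arrays 3, 4 and 5, which lay closer to the lowest controls without reaching them. ARG2 fell by 1.55 (SE 0.43, adjusted p = 0.0464), its probes gave -1.36 for the printed one and -1.73 for the other, and the call was lost in 7 of the 10 fits without 1 array (adjusted p 0.059 to 0.132) and with the stored kidneys averaged. A dimmer ARG2 identifier, with means of 5.24 in Ctl-CMJ and 2.47 in WI+CS6h-CMJ, was called lower at -2.77 (adjusted p = 0.00189). That identifier was not followed through the other fits. SLC7A2, a carrier of cationic amino acids, fell by 0.65 (SE 0.12, adjusted p = 0.00294). CELA2A had 8.31, 8.03, 8.26, 8.05 and 8.53 in Ctl-CMJ and 4.85, 5.01, 5.09, 4.18 and 6.69 in WI+CS6h-CMJ, with stored array 5 the highest of its group and no overlap. It fell by 3.07 (SE 0.70, adjusted p = 0.0158), and with the stored kidneys averaged it was not called.

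Of the remaining large falls, NMU, a neuropeptide, was called lower with a fitted value of -2.25 (SE 0.23, adjusted p = 1.76e-05), from 4.26 to 5.15 in Ctl-CMJ to 2.24 to 2.86 in WI+CS6h-CMJ, where 2 arrays were well above background. DLK1, a surface protein that restrains adipocyte differentiation, was called lower with a fitted value of -1.88 (SE 0.31, adjusted p = 0.00159), from 3.36 to 5.10 to 1.63 to 2.72 with 3 stored arrays well above background. NNAT, neuronatin of the endoplasmic reticulum, fell by 1.69 (SE 0.30, adjusted p = 0.00279), from 5.48 to 6.49 to 3.59 to 5.05. The largest rises and falls were chosen among genes whose arrays did not overlap between the groups, so that this holds for them by choice. CRSP3, calcitonin receptor-stimulating peptide 3 of the calcitonin family, was called lower (adjusted p = 0.0489). It was well above background on 1 control array and on no stored array, so no fold is given. Its call was lost in 9 of the 10 fits without 1 array (adjusted p 0.0706 to 0.117). A second CRSP3 identifier, not well above background on any array of either group, was called in the other direction (0.60, adjusted p = 0.039).

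**Figure D4:**
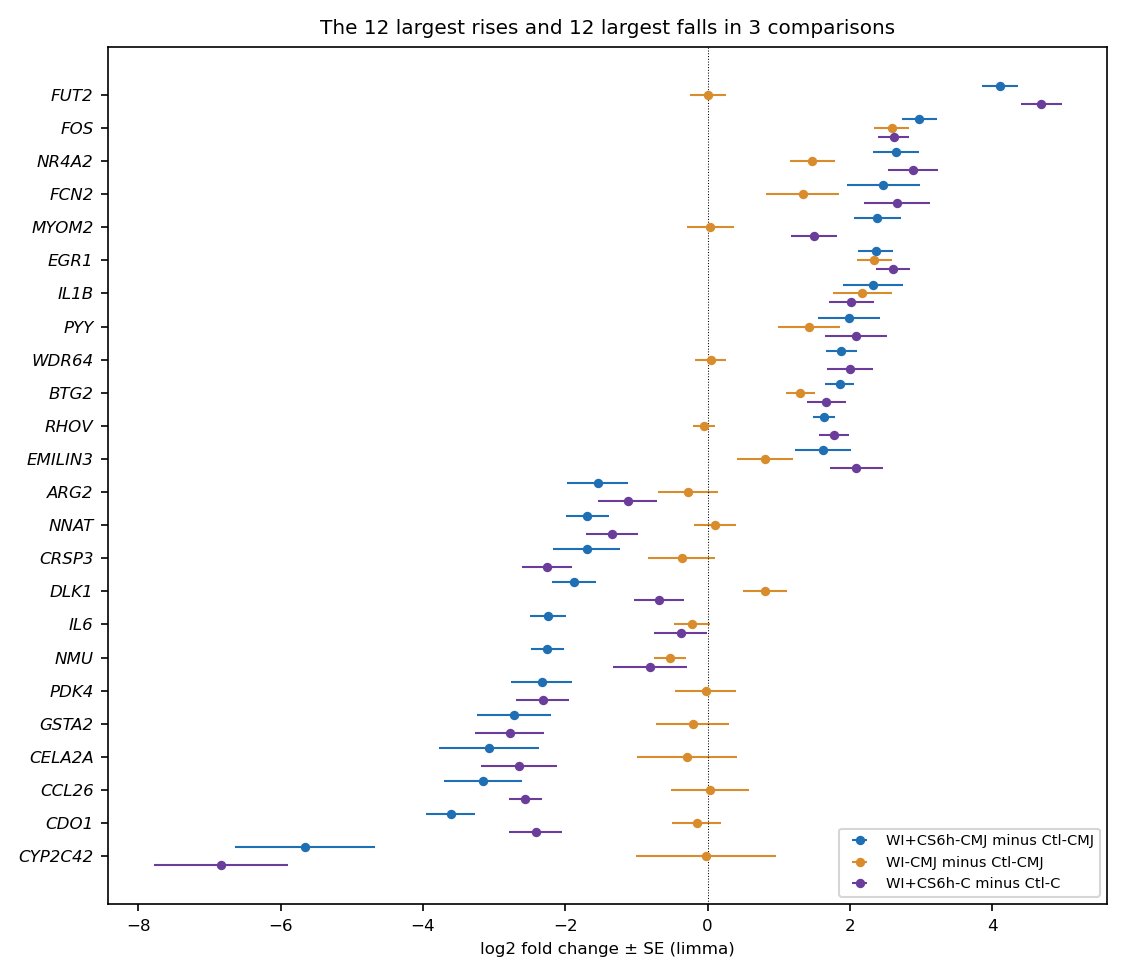
Log2 fold change ± SE from limma (x axis, log2 units) of the 12 largest rises and 12 largest falls in WI+CS6h-CMJ minus Ctl-CMJ (blue), with WI-CMJ minus Ctl-CMJ (orange, the same controls) and, in cortex samples of the same kidneys, WI+CS6h-C minus Ctl-C (purple). FOS lies at 2.98, 2.59 and 2.61 and CDO1 at -3.61, -0.15 and -2.42 in the 3 comparisons. The fitted values of MYOM2, PYY, WDR64, EMILIN3 and CRSP3 rest on a group that was not well above background, those of CYP2C42, NMU, IL6, DLK1 and CCL26 on a stored group with 1 to 4 arrays above it, those of IL1B and EGR1 on 4 control arrays above it, and those of FUT2 and RHOV in part on probes at background.

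Targets of NRF2, the regulator of the antioxidant response, were called in 2 of 31 cases. ABCC2, an export pump of the apical membrane of the proximal tubule, had 10.48, 10.47, 10.70, 10.27 and 10.17 in Ctl-CMJ and 11.61, 11.58, 11.46, 11.23 and 11.10 in WI+CS6h-CMJ. Every stored array was above every control and the log2 fold change was 0.98 (SE 0.13, adjusted p = 0.000205). HMOX1, the inducible heme oxygenase, had 9.99, 9.82, 9.94, 9.48 and 9.77 against 11.07, 11.23, 10.41, 10.01 and 10.52. Stored arrays 1 and 2 were the highest and array 4 was barely above the controls, the log2 fold change was 0.85 (SE 0.23, adjusted p = 0.0462), and in 9 of the 10 fits without 1 array the call was lost (adjusted p 0.0599 to 0.131). TXNRD1 (-0.40) and NQO1 (-0.25), antioxidant enzymes, were not called.

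Among 33 heat shock genes and chaperones none was called higher although 27 had a log2 fold change above 0, and the median was 0.26. HSP70.2, an inducible chaperone, had 6.42, 6.73, 7.28, 7.25 and 7.41 in Ctl-CMJ and 10.11, 8.25, 9.93, 7.97 and 7.57 in WI+CS6h-CMJ. Stored arrays 1 and 3 were far above the rest and array 5 was next to the highest control, and at 1.75 (SE 0.49) the adjusted p was 0.0528. DNAJC3, a cochaperone of the endoplasmic reticulum, fell by 0.58 (adjusted p = 0.0297), and that call was lost in 7 of the 10 fits without 1 array (adjusted p 0.0599 to 0.0763). Genes of cell division and DNA replication showed a similar picture, with 17 of 18 above 0, a median of 0.43 and 1 call. AURKB, a mitotic kinase, was that call (0.74, SE 0.14, adjusted p = 0.00453), and its 3 probes gave 0.108, 1.00 and 1.11, the brightest of them the least. The medians of both lists stayed above 0 under the 5 other ways of scaling the arrays.

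Of 35 glycolysis and hypoxia targets 2 fell and none rose. STC2, a secreted stress glycoprotein, fell by 1.07 (SE 0.19, adjusted p = 0.00255) and DDIT4, an inhibitor of mTOR, by 0.91 (SE 0.19, adjusted p = 0.00855), both without overlap. EPO, the erythropoietin gene of interstitial cells, had 6.73, 6.23, 5.66, 6.94 and 7.23 in Ctl-CMJ and 5.29, 5.93, 4.51, 5.43 and 5.56 in WI+CS6h-CMJ. Stored array 2 lay above control array 3, and at -1.21 EPO was not called (adjusted p = 0.131).

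Circadian and glucocorticoid-responsive genes had 2 rises and 2 falls among 18. BCL6, a transcriptional repressor, had 8.24, 8.15, 8.14, 8.5 and 8.49 in Ctl-CMJ and 9.66, 9.88, 9.93, 9.94 and 8.75 in WI+CS6h-CMJ. Stored arrays 1 to 4 lay together and array 5 was near the controls, and the log2 fold change was 1.33 (SE 0.26, adjusted p = 0.00557), a call lost with the stored kidneys averaged (adjusted p = 0.0519). CEBPA and CEBPD, related C/EBP factors, moved apart, CEBPA to a log2 fold change of 0.88 (SE 0.12, adjusted p = 0.000231) and CEBPD to -0.70 (SE 0.11, adjusted p = 0.000887), both without overlap. CIART, a repressor of the clock, fell by 0.60 (SE 0.16, adjusted p = 0.0347), its difference within slide 10 was 0.05, and the call was lost in 7 of the 10 fits without 1 array (adjusted p 0.0627 to 0.0859). A second, dimmer CIART identifier gave -0.43 and was not called (adjusted p = 0.175).

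In the list of p53 targets and apoptosis genes the called members of 28 were PLK3 and DDIT3, the factor CHOP of endoplasmic reticulum stress, which rose by 0.57 (SE 0.14, adjusted p = 0.0254). SMAD6, an inhibitor of BMP signals, and ID2, a BMP target, were the 2 called members of 38 TGF-beta, BMP and SMAD genes, with log2 fold changes of 0.68 (SE 0.12, adjusted p = 0.0026) and 0.63 (SE 0.17, adjusted p = 0.0385). Stored array 5, at 11.05, lay within the ID2 controls. Of 6 histone genes HIST1H2BD rose by 0.53 (SE 0.10, adjusted p = 0.00382). Without 1 array the call of DDIT3 was lost in 5 of 10 fits (adjusted p 0.0562 to 0.0682), that of ID2 in 8 (0.0707 to 0.0963) and that of HIST1H2BD in 2, without Ctl-CMJ array 4 or 5, through its size (0.457 and 0.497). The HIST1H2BD call was also lost in the fit of its brightest probe and with normexp (lowest value 0.25).

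Solute carriers were called in 9 of 183 cases (4.92%, against 3.38% of all genes with a symbol), 6 higher and 3 lower. SLC46A2 rose by 1.16 (SE 0.23, adjusted p = 0.00757, 0.0694 with the stored kidneys averaged), with 1.36 for the probe above background on all arrays and a second probe near background, and SLC7A8, a carrier of neutral amino acids, by 1.02 (SE 0.24, adjusted p = 0.0174), the latter not called without WI+CS6h-CMJ array 2 (adjusted p = 0.0537). The SLC7A8 call was also lost in the fit of its brightest probe. SLC26A7, SLC22A8, SLC22A2 and SLC38A6 rose by 0.94, 0.79, 0.72 and 0.54 (SLC26A7 was not called with slide as a term, adjusted p = 0.115), of which SLC22A8 and SLC22A2 carry organic anions and cations into the proximal tubule. SLC25A27, a mitochondrial uncoupling protein, fell by 1.01 (SE 0.16, adjusted p = 0.00104) and SLC38A1, a glutamine carrier, by 0.97 (SE 0.14, adjusted p = 0.000551).

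Among 107 ion channels, pumps and aquaporins 2 rose and 2 fell (3.74% called, against 3.38% of all genes with a symbol). SCNN1G, a subunit of the epithelial sodium channel, rose by 0.66 (SE 0.18, adjusted p = 0.0482), and its call was lost in 9 of the 10 fits without 1 array (adjusted p 0.0572 to 0.126). KCNJ3 was called higher (adjusted p = 0.00753) but was well above background on no control array and on 1 stored array, so no fold is given. Its call was lost with slide as a term, with the stored kidneys averaged, in the deposited matrix and with normexp (adjusted p up to 0.768). KCNJ2, an inward rectifier potassium channel, fell by 0.85 (SE 0.17, adjusted p = 0.0069), and CACNA1D, a calcium channel subunit, by 0.77 (SE 0.20, adjusted p = 0.034), the latter lost in 7 of the 10 fits without 1 array (adjusted p 0.0536 to 0.0971).

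No member was called in 5 lists of basic functions. These were gluconeogenesis and amino acid breakdown (22 genes, median 0.02), hyaluronan and CD44 (10 genes, -0.05), the proteasome (28 genes, -0.04), nuclear-encoded respiratory chain and ATP synthase (37 genes, 0.07) and cytosolic ribosomal proteins (57 genes, -0.10). Over all genes with a symbol 3.38% were called, so few calls would fall in lists of this size. Of the respiratory chain genes 31 of 37 were above 0 and none exceeded 0.25, and of the ribosomal protein genes 9 of 57 were above 0.

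**Figure D5:**
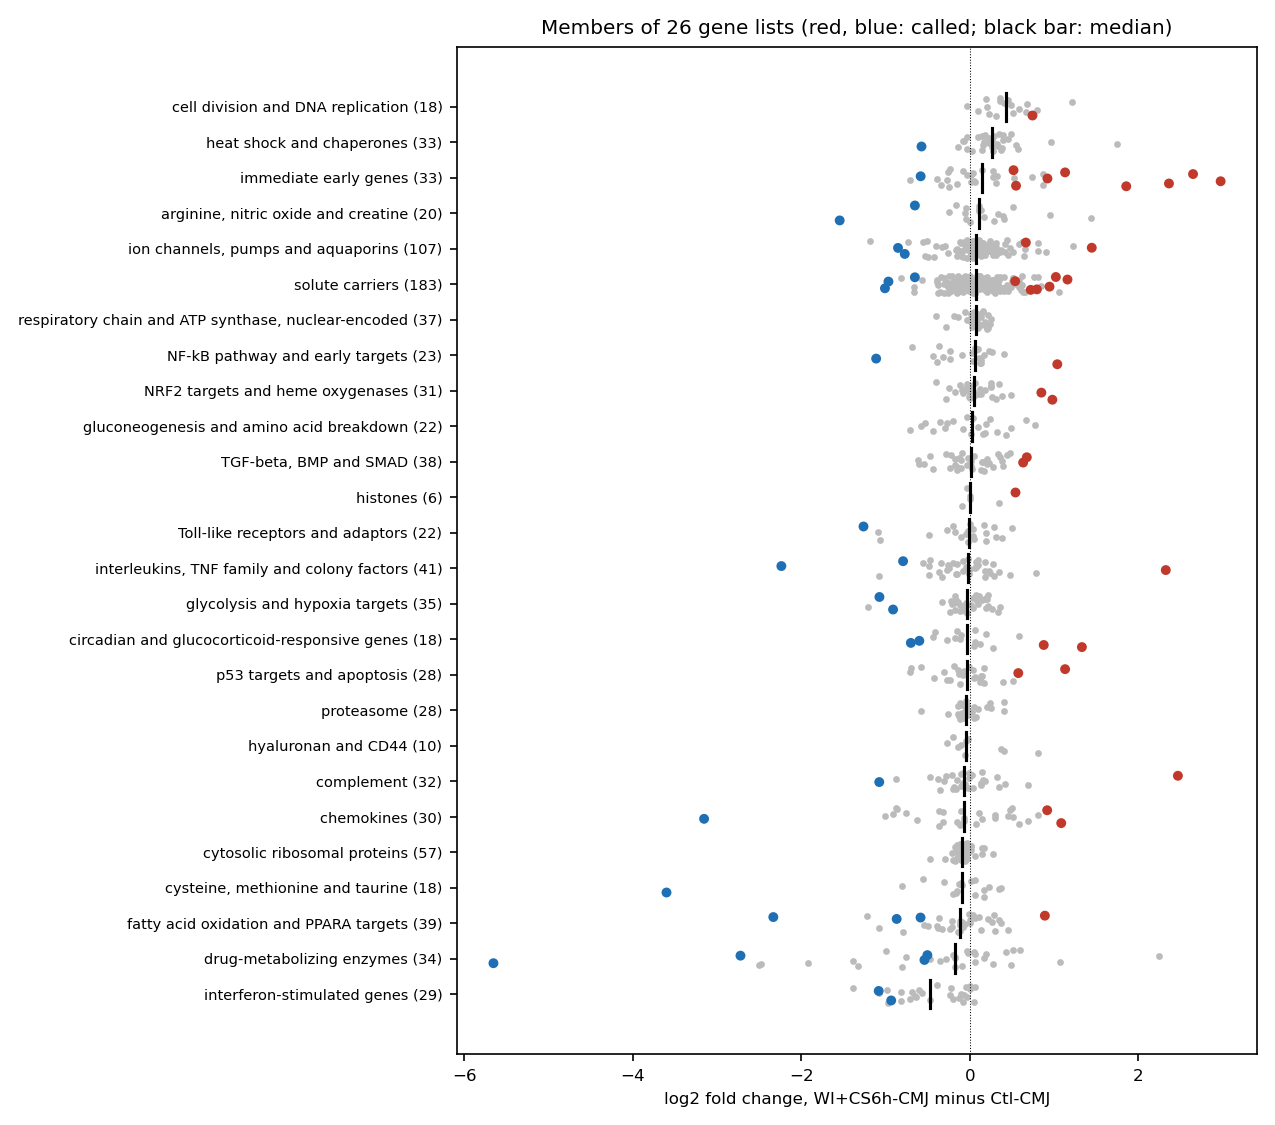
Log2 fold change of WI+CS6h-CMJ minus Ctl-CMJ (x axis, log2 units) for each measured member of 26 gene lists (y axis, number of members in brackets), sorted by their median (black bar). Red points are members called higher and blue points members called lower. The immediate early list holds 8 of the red points, the 4 called drug-metabolizing enzymes are all blue, and the interferon-stimulated list has the lowest median at -0.47.

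Markers of cell types were read beside these lists, and in bulk tissue fewer cells of a type and less RNA per cell cannot be told apart. Of 22 proximal tubule markers 4 rose (ANPEP by 0.99, SLC22A8 by 0.79, SLC22A2 by 0.72 and PDZK1 by 0.54) and 18 were not called, with a median of 0.35. The call of SLC22A8 was lost in 8 of the 10 fits without 1 array and that of ANPEP in 6. The mean log2 signal of this list per array ran from 10.50 to 10.76 in Ctl-CMJ and from 10.70 to 11.22 in WI+CS6h-CMJ. The part of this shift in the rises of ABCC2 and the organic ion carriers was not tested. The call of PDZK1, a scaffold protein of the brush border, was lost without Ctl-CMJ array 4, where its value was 0.499.

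Of 13 collecting duct and medulla markers SCNN1G rose and AKR1B1, the aldose reductase that makes sorbitol in the salty medulla, fell by 1.5 (SE 0.37, adjusted p = 0.0273), a call lost in 7 of the 10 fits without 1 array (lowest adjusted p 0.0526). AKR1B1 had 8.95, 8.19, 6.97, 9.09 and 9.86 in Ctl-CMJ and 6.95, 7.23, 7.52, 6.88 and 6.99 in WI+CS6h-CMJ, so control array 3 was level with the stored arrays. The mean of this list per array ran from 7.08 to 7.43 in Ctl-CMJ and from 7.01 to 7.36 in WI+CS6h-CMJ. KDR, a receptor of vascular endothelial growth factor, rose by 0.59 (SE 0.13, adjusted p = 0.0138) as the 1 called member of 10 endothelial markers. No marker was called among 13 of the thick ascending limb and distal tubule, 4 of podocytes, 16 of fibroblasts and smooth muscle, 12 of adipocytes, 6 of erythrocytes and 24 of leukocytes. At the share of 3.38% over all genes with a symbol, few calls would fall in these lists.

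Leukocyte markers had a mean log2 signal per array of 5.44 to 5.72 in Ctl-CMJ and 5.51 to 5.63 in WI+CS6h-CMJ, with a median log2 fold change of -0.17 and 7 of 24 members above 0. Stored array 5 differed within this list. S100A12, a calcium-binding protein of neutrophils, had 2.17, 2.18, 4.95, 4.53 and 11.20 in WI+CS6h-CMJ and 2.38 to 3.36 in Ctl-CMJ, and was not called (2.11, SE 1.52, adjusted p = 0.571). S100A8, its neutrophil relative, had 0.33, 1.66, 4.26, 4.06 and 5.13 against 1.15 to 2.6 and was not called either (adjusted p = 0.5). Erythrocyte markers were close to background in both groups, with HBE1, an embryonic globin, not well above it on any array. The part of these cells in the IL1B and FCN2 values was not tested.

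The difference between the responses of CMJ and cortex, (WI+CS6h-CMJ minus Ctl-CMJ) minus (WI+CS6h-C minus Ctl-C), was tested in a limma fit of all 40 arrays, and none of 35934 identifiers was called, with 1856 at an unadjusted p under 0.05 and a smallest adjusted p of 0.819. With each group normalized separately, 1013 were called, 249 higher and 764 lower. Cortex and CMJ were sampled from the same kidneys. With group and replicate number joined as a random block, to stand for the kidney, none was called (2356 at an unadjusted p under 0.05). Same-numbered Ctl-CMJ and Ctl-C arrays did not deviate together (correlations -0.13 to 0.0795), so for the controls this block is not shown to be the kidney. In cortex of these kidneys WI+CS6h-C differed from Ctl-C in 1445 of 35939 identifiers (4.02%), 585 higher (1.63%) and 860 lower (2.39%). All 12 of the largest rises of CMJ were called higher there, and 8 of the 12 largest falls were called lower. The 4 not called were ARG2 (-1.12, adjusted p = 0.128), NMU, IL6 and DLK1. In cortex NMU was not well above background on any array of either group, DLK1 was so on no stored array and IL6 on 2 stored arrays, so the sizes of their differences there could not be measured.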

How the data were processed

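Total RNA of 1 biopsy per array was hybridised to Agilent porcine single-color arrays. Per the files the authors deposited, the processed signal of Feature Extraction 11.5.1.1 is an intensity after background subtraction that is not yet normalized between arrays. A deposited table of log2 values, quantile normalized by condition and summarised with limma per the study's methods, served as an alternative only (column medians 5.32 to 5.36, direction and scale as in the arrays, lowest rank correlation with its own array 0.994).

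Here the 43803 spots that are not controls were taken to log2 without outlier spots, followed by quantile normalization over 40 arrays and averaging by identifier (35955, of which 9186 have a symbol). The 20 CMJ arrays were fitted by group with limma 3.58.1 in R 4.3.3 (lmFit, eBayes, Benjamini-Hochberg) at the thresholds of the study. On simulated arrays the fit called 71% of genes changed by 1 log2 unit and 92% of those changed by 2 in WI+CS6h-CMJ versus Ctl-CMJ (35773 identifiers, 8 false calls), and 39% and 81% in the tissue difference (35669 identifiers, 7 false calls). The simulated arrays were drawn independently of each other. These rates therefore do not cover arrays that resemble each other, such as those of the stored kidneys. Precision is limited by having 5 arrays in a group. Per the labels the 6 h and 24 h samples are of the same kidneys, and same-numbered arrays of these groups deviated together (correlations 0.332 to 0.61), as did those of WI+CS6h-CMJ and WI+CS6h-C (0.134 to 0.457). Those of Ctl-CMJ and Ctl-C did not (-0.13 to 0.0795). The fit treats them as independent in its estimate of the spread, and the fit of the compared groups alone holds no 24 h array.

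Named genes are IL1B, MYOM2 and CDO1, the 12 largest rises and 12 largest falls among called genes with a symbol and no overlap, up to 4 called members per list and the 3 brightest of each marker list, with the brightest identifier standing for a gene. Other genes named were chosen after their values were seen. The members and lists were chosen with earlier results of these data known. Some marker genes are not reported here. A fold against a group near background is a lower bound. Alternatives were other scalings, normexp background correction, filters, probes, the deposited table, terms for slide, scan day, replicate number and share of spots above background, only the groups compared, and each array left out. Averaging stored kidneys, and slide or kidney as a random block, were chosen after seeing the data.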

Additional observations from a re-analysis of the deposited data

Results flagged for a closer look

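In 13 of 182 tests of a gene in a group, the highest or lowest array stood far from the other 4, where chance gives about 1 in 20. All 6 in WI+CS6h-CMJ concern array 5. It was the lowest for NR4A2 (6.85, next 7.97), TNFSF10 (7.12, next 7.79), BCL6 (8.75, next 9.66), ID2 (11.05, next 11.68) and LRP2 (13.47, next 14.66), and the highest for AIF1, a macrophage marker (10.50, next 9.86). In Ctl-CMJ, array 5 was the lowest for CYP2C42 (3.58, next 7.54) and the highest for GBP2 (9.35, next 9.24). Ctl-CMJ array 4 was the highest for TNFSF10 (8.65, next 8.56) and the lowest for CEBPD (11.15, next 11.55), HSD11B2 (10.08, next 10.19) and AGPAT2 (8.07, next 8.44), and Ctl-CMJ array 2 was the highest for HBE1 (2.15, next 1.24), which was not well above background.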

How the results depend on the processing

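The 1148 calls in WI+CS6h-CMJ versus Ctl-CMJ became 164 with normexp background correction, 500 in the deposited log2 matrix and 697 with stored kidneys 1 and 2, and 3 and 4, averaged (chosen after seeing the data). Normexp adds an offset of 50 to each intensity, which shrinks the fold changes of dim genes (IL1B 0.37, MYOM2 0.16, FUT2 0.47, EGR1 0.39), and 159 of its 164 calls are among the 1148. The other settings gave 889 to 1513, and leaving out 1 array gave 836 to 1152. Normalizing each group separately gave 1396 calls, 64.5% of them higher against 42.2%. The replicate numbers did not pair the groups (correlations of the deviations of same-numbered arrays -0.0762 to 0.218, and array 4 alone correlated best with its own number), and with the replicate number as a block 1241 identifiers were called, without CRSP3, CIART and CACNA1D among the named genes. The difference between CMJ and cortex had 0 calls in all settings other than these: normalization within each group gave 1013, the averaged stored kidneys gave 8, and leaving out 1 array gave 0 to 2 (2 without WI+CS6h-C array 2, 1 without WI+CS6h-C array 4, 2 without Ctl-CMJ array 3). With a replicate block it had 0. The cause of these differences was not tested.

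Of 63 named calls none changed direction. With the stored kidneys averaged 43 were kept, with normexp 25, with slide as a term 48, in the deposited matrix 46, and 17 were kept in all settings. The fit of the compared groups alone, which holds no 24 h array, kept 52. It ended the calls of ARG2, CCL2, CIART, EMILIN3, HADHA, HMOX1, HSD17B4, ID2, PPARA, SLC7A8 and TLR7. Leaving out each array in turn kept 43 in all 10 fits. Of the 28 named genes that were not called, HSD11B2 was called in at least 1 setting. Averaging ended the calls of EMILIN3, CELA2A, CRSP3, ARG2, TNFSF10, CCL2, CD83, DNAJC3, HMOX1, PPARA, HSD17B4, BCL6, CIART, DDIT3, ID2, TLR7, SLC46A2, SLC7A8, KCNJ3 and SCNN1G. On dim genes signal over background is the limit, and 84 called identifiers in Ctl-CMJ and 65 in WI+CS6h-CMJ were not well above it.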

Other observations

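Large differences were found among called identifiers without a symbol, which were chosen after their values were seen. The identifier NP276701, which the array files describe as FOSB protein, a relative of FOS, had log2 signals of 2.77, 2.66, 3.08, 3.01 and 4.78 in WI+CS6h-CMJ, was not well above background in Ctl-CMJ (0.28 to 0.49) and was at least 1.94-fold higher (adjusted p = 0.000484). ENSSSCT00000007306, described as a histone H2ab transcript, had 3.38, 3.5, 3.80, 3.53 and 3.31 against 0.15 to 1.72 and was at least 2.30-fold higher (adjusted p = 1.19e-05). NP276701 and this identifier were already called higher in WI-CMJ against Ctl-CMJ (fitted values 3.48 and 2.54, adjusted p = 0.000386 and 9.34e-05). TC588425, similar to MS4A4A, a membrane protein of macrophages, had 4.48, 4.69, 4.62, 4.88 and 4.35 against 1.85 to 3.03 and was called higher (adjusted p = 0.00012). Only 2 control arrays were well above background for it, so the size of the difference was not measured. TC576734, described as the inter-alpha-trypsin inhibitor heavy chain H1, a serum protein that binds hyaluronan, was called lower (fitted value -3.43, SE 0.60, adjusted p = 0.00261), from 3.35 to 5.97 in Ctl-CMJ to 0.23 to 2.70 in WI+CS6h-CMJ, where 2 arrays were well above background.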
